A study of Homo sapiens with 6 samples.

Results

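The replication-dependent histone genes were followed in MOLP-8, a human cell line from multiple myeloma, after CRISPR targeting of LIN28B. Members were all genes of the deposited tables whose symbol begins with HIST1H, HIST2H, HIST3H or HIST4H. Leaving out the 13 numbered pseudogenes (PS in the symbol) left 76 of 57861 genes. Of these 76, 6 are annotated as pseudogenes under other symbols and stayed in. In 3 libraries the cells carried the lentiviral vector lentiCRISPRv2 with a guide RNA against LIN28B (LIN28B KO), and in 3 they carried the same vector with a scrambled guide (control). Cells of both groups were kept in RPMI medium with 10% serum and selected with puromycin at 1 ug/mL, total RNA was isolated on RNeasy columns, and a NEBNext RNA kit was used for the libraries. The labels describe transduced cells and name no clone, and nothing says that a group's libraries stem from separate cultures, so the p-values reflect the spread among these 6 libraries, which could be technical. Neither poly(A) selection nor strand is given in the sources used here.

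Nucleosomes are built from H2A-H2B dimers and H3-H4 tetramers, and linker histones of the H1 class bind the DNA between them. Cells make the bulk of these proteins in S phase from clustered genes that mostly lack introns, and the mRNAs of these genes end in a conserved stem-loop instead of a poly(A) tail. The stem-loop binding protein SLBP and the U7 small nuclear ribonucleoprotein direct the cut that forms this end, and SLBP stays with the mRNA through its translation and decay. Several of the genes can also give longer mRNAs with a poly(A) tail, a form known from differentiated and non-dividing cells. Whether a library holds the stem-loop form depends on how RNA was selected, so the levels below are those of whichever form these libraries captured.

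The stem-loop is shown first because it defines the family. In the GENCODE 29 transcripts (GRCh38, used for sequence only because the tables are on GRCh37), 70 members had a coding transcript and 35 had at least 50 annotated bases after the stop codon. The core was GG, any 3 bases, T, any 4 bases, A, any 3 bases, CC, read on the sense strand. Its 6-base stem had to pair with at most 1 mismatch around a 4-base loop. It lay within the first 100 annotated bases after the stop codon in 32 of the 70. One of these, HIST1H4J, had only 44 such bases. HIST1H1E, HIST1H1T, HIST1H2BJ and HIST1H4C had at least 50 and no core. Among other genes with at least 50 such bases, the same search found it in 115 of 18770, or 0.613%. Of the 32, 17 had the core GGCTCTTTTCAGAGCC, 5 had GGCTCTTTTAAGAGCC and 5 had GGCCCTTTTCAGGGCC. The sites of the 6 members with the highest levels among the 32 follow, 5′ to 3′ in DNA letters, with the stem and loop in capitals.
HIST1H2AC: cccaaaGGCTCTTTTCAGAGCCccccta
HIST3H2A: cataaaGGCTCTTTTCAGAGCCacctac
HIST1H2BD: cccaaaGGCTCTTTTAAGAGCCacgcat
HIST1H4H: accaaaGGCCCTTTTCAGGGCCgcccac
HIST2H2BE: tccaaaGGCTCTTTTCAGAGCCacccac
HIST4H4: ccaaaaGGCCCTTTTCAGGGCCcccaaa
Both H4 genes of this set share one core, and 3 of its 4 H2A and H2B genes share another. A match is a description of these letters and not of processing in these cells.

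A second element recurs in promoters. Within 250 bases before to 50 bases after the RefSeq gene start (GRCh38.p14), available for 62 of the 76 members, the octamer ATTTGCAT, read on both strands, was present in 14 of 17 H2B promoters (82.4%) and 11 of 15 H2A promoters (73.3%). It was present in 1 of 12 H3, 0 of 6 H1 and 0 of 12 H4 promoters, against 1.77% of 35116 promoters in all. These counts are per promoter, and an octamer shared by neighbouring genes counts once for each. Several H2A and H2B pairs share one, and the H3 promoter, of HIST1H3D, holds the same window as that of HIST1H2AD. The motif TATAAA was in 66.1% of the members' promoters and 11.5% of all, and CCAAT in 85.5% and 34.6%. CCAAT was in every H1, H2A, H2B and H3 promoter searched, but in only 3 of 12 H4 promoters. That H4 share was below the share among all promoters. The windows below, with the octamer in capitals, are from the H2B gene with the highest level and from a divergent H2A and H2B pair that shares one octamer, read from each gene's own strand.
HIST1H2BK: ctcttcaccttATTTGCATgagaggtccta
HIST1H2AC: tgggcagagctATGCAAATgaggtatgaaa
HIST1H2BC: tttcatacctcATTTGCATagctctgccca
The octamer starts 130 bases before the HIST1H2AC start and 123 bases before the HIST1H2BC start, so that one octamer lies in both promoter windows.

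The targeted gene was lower in every LIN28B KO library. LIN28B, an RNA-binding protein that blocks let-7 microRNA maturation, was at 8.41, 8.17 and 5.84 FPKM (fragments scaled by transcript length and by the library's total) in the LIN28B KO libraries, against 23.3, 24.3 and 25.5 FPKM in the controls. The groups did not overlap, and LIN28B KO retained 30.7% of the control level. Its log2 fold change was -1.66 ± 0.17 (SE; limma, Benjamini-Hochberg adjusted p = 0.0207 over 15803 genes), and an exact two-sided permutation test gave 0.1, the smallest p that 3 against 3 allows. The limma adjusted p was 0.0675 to 0.185 when LIN28B KO library 1 or 2 or any 1 control was left out, which ended the call, and 0.00957 without LIN28B KO library 3.

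LIN28B KO library 3 differed from all others in several measures. Protein-coding genes at 20 to 100 FPKM had a median log2 ratio to the control mean of -0.50 in it, -0.07 in each of the other LIN28B KO libraries, and between -0.01 and 0.00 in the controls. Olfactory receptor genes, which a myeloma line is not known to use, were above 0 for 30.4% of 401 genes in that library, against 11.7% and 14.5% in the other LIN28B KO libraries and 10.2% to 13.0% in controls. Depth was estimated from the deposited bounds as 4808210 to 5596934 fragment equivalents per LIN28B KO library and 6310855 to 8368315 per control library. All 10 plasma cell markers were detected, and the B cell marker MS4A1 was listed at 0 in every library. The plasma cell markers summed to 3144, 3215 and 2170 FPKM in LIN28B KO libraries 1 to 3 and 3201 to 3310 FPKM in controls. Without library 3 on protein-coding genes, SLAMF7 and TNFRSF17 were called higher and 0 of the 10 lower, beside 1.07% and 2.99% of genes. Results below are therefore given with all 6 libraries and without LIN28B KO library 3.

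A few members carried most of the family's signal. The mean over 6 libraries was at least 10 FPKM for 6 members, 1 to 10 FPKM for 20, above 0 and under 1 FPKM for 39, and 0 in every library for 11. HIST1H2BK and HIST1H1C alone held 34.1% to 39.4% of the summed FPKM in LIN28B KO libraries, against 40.1% to 41.7% in controls. The 6 highest held 61.9% to 68.5% in LIN28B KO and 64.6% to 67.6% in controls. H3 genes were the lowest class relative to their number, with none of 15 at 10 FPKM or more and 5 at 0, among them the pseudogene HIST2H3DP1. Among the 11 at 0 were HIST3H3 and HIST1H2AA, genes known from testis, and HIST2H2AA4, HIST2H3A, HIST2H3C and HIST2H4B, for which near-identical copies exist. No member was flagged as a failed estimate. Coding sequences within a class are nearly alike, so the split of reads among copies is uncertain. An exact 0 therefore need not mean that a gene is silent.

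**Figure D1:**
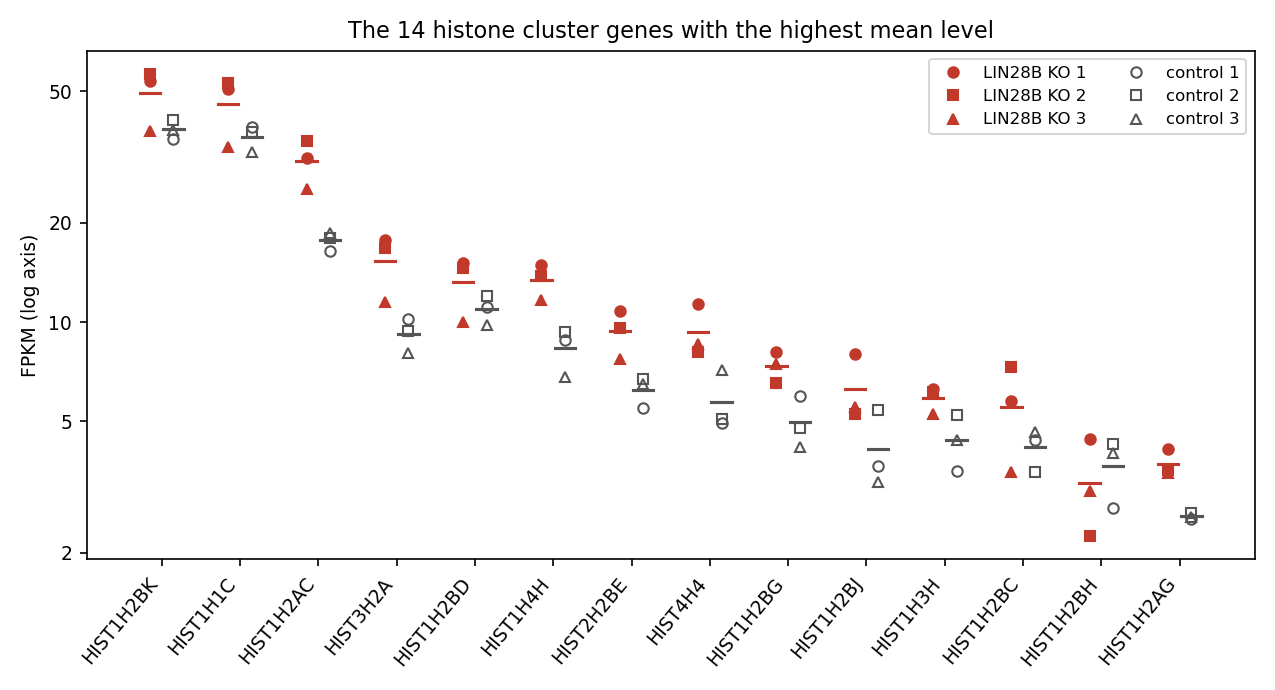
FPKM, on a log axis, of the 14 members with the highest mean over all 6 libraries; filled red symbols are the 3 LIN28B KO libraries, open grey symbols the 3 control libraries, and lines the group means. HIST1H2AC, HIST3H2A, HIST1H4H and HIST2H2BE have every LIN28B KO library above every control library, while in HIST1H2BK and HIST1H1C the third LIN28B KO library lies among the controls.

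Of the 6 members at 10 FPKM or more, the H2A gene HIST1H2AC had the largest log2 fold change. This protein-coding gene (ENSG00000180573, chr6:26124373-26139344 on GRCh37) lies in the HIST1 cluster and was at 31.4, 35.4 and 25.3 FPKM in LIN28B KO libraries, against 16.4, 18.01 and 18.6 FPKM in controls. Every LIN28B KO library was above every control, including library 3. HIST1H2AC averaged 30.7 ± 5.08 FPKM in LIN28B KO and 17.7 ± 1.13 FPKM in controls (SD, n = 3 each), each library resting on 227 to 311 fragment equivalents. With all 6 libraries its log2 fold change of 0.77 ± 0.16 (SE) had an adjusted p of 0.226 in limma. Without LIN28B KO library 3 it passed, at 0.90 ± 0.09 with a limma adjusted p of 0.0438. It also passed with all 6 libraries after cyclic loess scaling, at 0.95 ± 0.08 with a limma adjusted p of 0.0153.

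HIST3H2A (ENSG00000181218, chr1:228645065-228645560), the H2A gene of the HIST3 cluster, was at 17.7, 16.7 and 11.5 FPKM in LIN28B KO libraries, against 10.2, 9.38 and 8.08 FPKM in controls. The groups did not overlap, although library 3 of LIN28B KO was closest to the controls. Its log2 fold change was 0.68 ± 0.19 (SE; limma adjusted p = 0.288) with all libraries. HIST1H2AG was at 4.12, 3.56 and 3.48 FPKM in LIN28B KO and 2.54, 2.64 and 2.56 FPKM in controls, again with no overlap. HIST1H2AE was at 2.53, 4.36 and 2.49 FPKM in LIN28B KO and 2.18, 2.46 and 1.99 FPKM in controls, where the separation of 2 of the LIN28B KO libraries from the highest control is small. HIST2H2AA3 overlapped between groups, at 3.14, 4.12 and 1.89 FPKM in LIN28B KO and 2.64, 2.22 and 1.80 FPKM in controls. HIST2H2AC ran the other way without passing a test, at 0.680, 1.14 and 2.24 FPKM in LIN28B KO and 2.01, 0.859 and 2.496 FPKM in controls. Its log2 fold change was -0.31 ± 0.42 (SE), on 5 to 23 fragment equivalents per library.

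Among H2B genes, HIST1H2BK (ENSG00000197903, chr6:27106073-27114619) had the highest level of the whole family. It was at 53.7, 56.4 and 37.9 FPKM in LIN28B KO libraries, against 35.9, 41.0 and 38.2 FPKM in controls. LIN28B KO libraries 1 and 2 were above every control, while library 3 lay within the control range. The log2 fold change was 0.34 ± 0.18 (SE; limma adjusted p = 0.411) with all libraries and 0.54 ± 0.07 (limma adjusted p = 0.0457) after cyclic loess scaling. HIST1H4I lies inside the HIST1H2BK locus, and without strand information reads of overlapping genes cannot be told apart.

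HIST2H2BE (ENSG00000184678, chr1:149856010-149858232) was at 10.8, 9.61 and 7.74 FPKM in LIN28B KO and 5.48, 6.72 and 6.51 FPKM in controls, with no overlap. HIST1H2BG was at 8.11, 6.56 and 7.45 FPKM in LIN28B KO and 5.98, 4.77 and 4.18 FPKM in controls, also with no overlap. HIST1H2BD overlapped, at 15.04, 14.6 and 10.03 FPKM in LIN28B KO and 11.1, 11.9 and 9.77 FPKM in controls. The overlap came from library 3, since LIN28B KO libraries 1 and 2 lay above all controls. HIST1H2BJ was at 8.03, 5.25 and 5.52 FPKM in LIN28B KO and 3.67, 5.40 and 3.29 FPKM in controls. HIST1H2BH was at 4.43, 2.24 and 3.08 FPKM in LIN28B KO and 2.73, 4.27 and 4.02 FPKM in controls, with a log2 fold change of -0.18 ± 0.27 (SE). HIST1H2BJ and HIST1H2BH both overlapped between groups. HIST3H2BB was at 2.29, 2.74 and 1.45 FPKM in LIN28B KO and 0.460, 0.257 and 0.581 FPKM in controls. It passed the filter on low values only through its LIN28B KO values, rests on 2 to 16 fragment equivalents, and its log2 fold change of 1.5 ± 0.29 (SE; limma adjusted p = 0.226) is given as a description. HIST2H2BC, annotated as a pseudogene, was at 1.35, 1.30 and 0.800 FPKM in LIN28B KO and 1.40, 1.64 and 0.292 FPKM in controls.

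Of the H4 class, HIST1H4H (ENSG00000158406, chr6:26281283-26285762) was at 14.9, 13.7 and 11.7 FPKM in LIN28B KO libraries, against 8.84, 9.33 and 6.80 FPKM in controls. HIST4H4, the single gene of the HIST4 cluster on chromosome 12, was at 11.4, 8.11 and 8.57 FPKM in LIN28B KO and 4.95, 5.07 and 7.15 FPKM in controls. In both genes every LIN28B KO library was above every control. Their log2 fold changes with all libraries were 0.66 ± 0.17 for HIST1H4H and 0.66 ± 0.20 for HIST4H4 (SE; limma adjusted p = 0.265 and 0.298). HIST1H4I was at 1.16, 1.58 and 1.995 FPKM in LIN28B KO and 0.979, 1.18 and 1.11 FPKM in controls, overlapping by one library. HIST1H4E overlapped as well, with means of 1.32 ± 0.135 FPKM in LIN28B KO and 0.997 ± 0.324 FPKM in controls. HIST1H4C averaged 1.25 ± 0.702 FPKM in LIN28B KO and 0.621 ± 0.495 FPKM in controls (SD, n = 3 each), and its libraries overlapped.

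H1 and H3 had 2 tested genes each. HIST1H1C (ENSG00000187837, chr6:26055968-26056699), a linker histone gene, was at 50.6, 53.0 and 33.8 FPKM in LIN28B KO and 38.9, 37.7 and 32.6 FPKM in controls. As in HIST1H2BK, LIN28B KO libraries 1 and 2 were above every control and library 3 was not, and the log2 fold change with all libraries was 0.30 ± 0.20 (SE; limma adjusted p = 0.474). HIST1H1E, another linker histone gene, was at 1.66, 2.54 and 2.61 FPKM in LIN28B KO and 1.39, 1.34 and 0.922 FPKM in controls, without overlap. The H1 genes HIST1H1D, HIST1H1B and HIST1H1T stayed under 0.5 FPKM in every library of both groups. HIST1H3H was at 6.26, 6.15 and 5.27 FPKM in LIN28B KO and 3.55, 5.21 and 4.40 FPKM in controls. HIST1H3D was at 2.72, 1.32 and 1.86 FPKM in LIN28B KO and 0.990, 0.993 and 1.06 FPKM in controls. Both H3 genes separated by group, HIST1H3H by a narrow margin and HIST1H3D while sharing its locus with HIST1H2AD. The next H3 genes, HIST1H3B, HIST1H3G and HIST1H3F, averaged 0.628, 0.497 and 0.385 FPKM in LIN28B KO and 0.741, 0.583 and 0.296 FPKM in controls, and overlapped.

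Summed by class, all 5 classes averaged higher in LIN28B KO. H2A genes summed to 62.8 ± 9.49 FPKM in LIN28B KO and 40.3 ± 0.974 FPKM in controls (SD, n = 3 each), a ratio of 1.56, or 1.69 without LIN28B KO library 3. H4 genes summed to 29.2 ± 2.94 FPKM in LIN28B KO and 18.1 ± 1.03 FPKM in controls, a ratio of 1.62, or 1.66 without that library. In these 2 classes every LIN28B KO sum was above every control sum. H2B sums were 104 ± 17.1 FPKM in LIN28B KO and 78.9 ± 5.19 FPKM in controls, H1 sums 48.7 ± 10.3 FPKM in LIN28B KO and 38.1 ± 3.54 FPKM in controls, and H3 sums 10.1 ± 1.58 FPKM in LIN28B KO and 7.63 ± 1.64 FPKM in controls. The H1, H2B and H3 sums of LIN28B KO library 3, at 37.0, 84.5 and 8.92 FPKM, lay within the control ranges of 34.1 to 40.8, 75.5 to 84.9 and 5.87 to 9.13 FPKM. Without it the ratios were 1.43 for H1, 1.45 for H2B and 1.40 for H3. The whole family summed to 255 ± 38.7 FPKM in LIN28B KO and 183 ± 8.67 FPKM in controls, and without HIST1H2BK and HIST1H1C to 160 ± 18.6 FPKM in LIN28B KO and 108 ± 5.18 FPKM in controls. These sums are descriptions with no test, and in bulk RNA a change in the number of cells that make a transcript and a change in its amount per cell cannot be told apart.

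**Figure D2:**
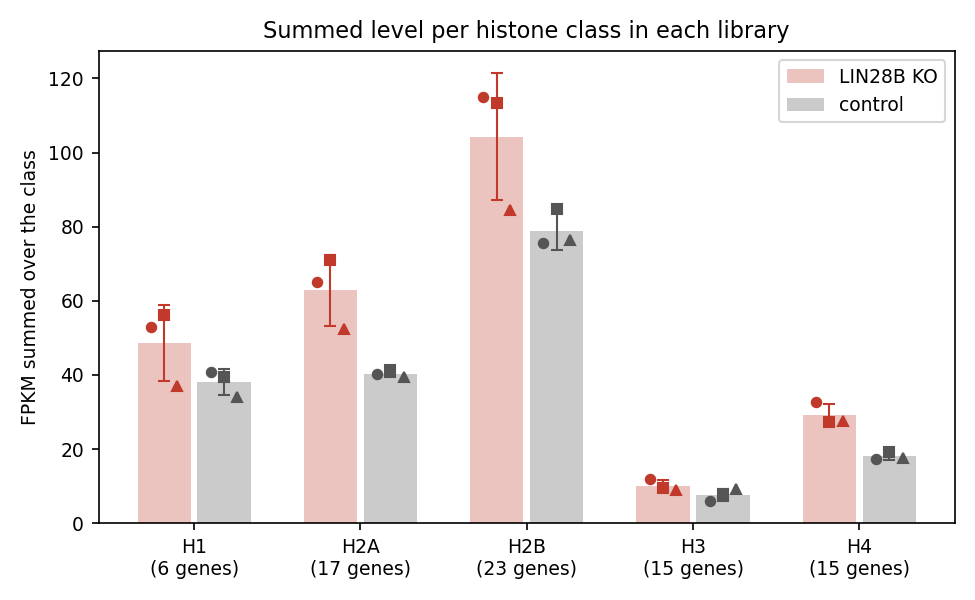
FPKM summed over the genes of each histone class; bars are means, error bars SD (n = 3 each), and symbols the single libraries (circle 1, square 2, triangle 3), with LIN28B KO left of control. The H2A and H4 sums separate by group, from 52.4 FPKM upward in LIN28B KO against at most 41.4 FPKM in controls for H2A.

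Of the 76 members, 27 passed the filter of 1 FPKM in at least 3 libraries and were tested with all 6 libraries. None passed the adjusted threshold of 0.05 in either direction (limma), where 0.0633% of all 15803 tested genes were called higher and 0.0316% lower. At an unadjusted p under 0.05, 11 members were higher and 0 lower, beside 4.95% and 8.73% of all tested genes. The log2 fold change was above 0 in 25 of the 27, beside 33.5% of all tested genes, the exceptions being HIST2H2AC and HIST1H2BH. Every LIN28B KO library was above every control in 13 of the 27 (48.1%), beside 7.61% of all tested genes, and below in 0, beside 20.1%. The median log2 fold change was 0.44 for the 27 members and -0.13 for all tested genes. Since a gene can pass this filter through the group where it is high, the counts were repeated on the 18 members that had at least 1 FPKM in all 3 control libraries. Of these, 10 (55.6%) had every LIN28B KO library above every control, beside 5.87% of 14242 genes chosen in the same way, and in 17 the LIN28B KO mean was the higher one, beside 30.3% of those genes, HIST1H2BH being the exception.

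The members were also compared without LIN28B KO library 3, where separation of the groups is easier to reach for any gene. Of the 18 members chosen on controls, 16 (88.9%) then had both remaining LIN28B KO libraries above every control, beside 16.1% of genes chosen likewise, and 17 had the higher LIN28B KO mean, beside 45.1%. Among 25 tested members only HIST1H2AC was called, beside 0.15% of 15336 genes. Restricted to protein-coding genes, the fit without that library called 6 of 24 members higher and 0 lower, beside 1.07% and 2.99% of 11414 genes, and 22 of the 24 had a log2 fold change above 0, beside 42.8%. Called higher were HIST1H2AC (0.90 ± 0.10, adjusted p = 0.0196), HIST3H2A (0.87 ± 0.12, adjusted p = 0.0271), HIST1H4H (0.76 ± 0.15, adjusted p = 0.0445), HIST2H2BE (0.67 ± 0.13, adjusted p = 0.0420), HIST1H2BK (0.52 ± 0.08, adjusted p = 0.0303) and HIST1H1C (0.51 ± 0.09, adjusted p = 0.0392), as log2 fold changes with SE from limma. They hold 1 H1, 2 H2A, 2 H2B and 1 H4 gene from 3 chromosomal clusters. With cyclic loess scaling of the same libraries HIST1H4H and HIST2H2BE missed the threshold, at limma adjusted p = 0.0539 and 0.0511, and the other 4 kept it, beside 0.999% of genes. With all 6 libraries, cyclic loess gave 2 calls, HIST1H2AC and HIST1H2BK, beside 0.361% of genes.

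**Figure D3:**
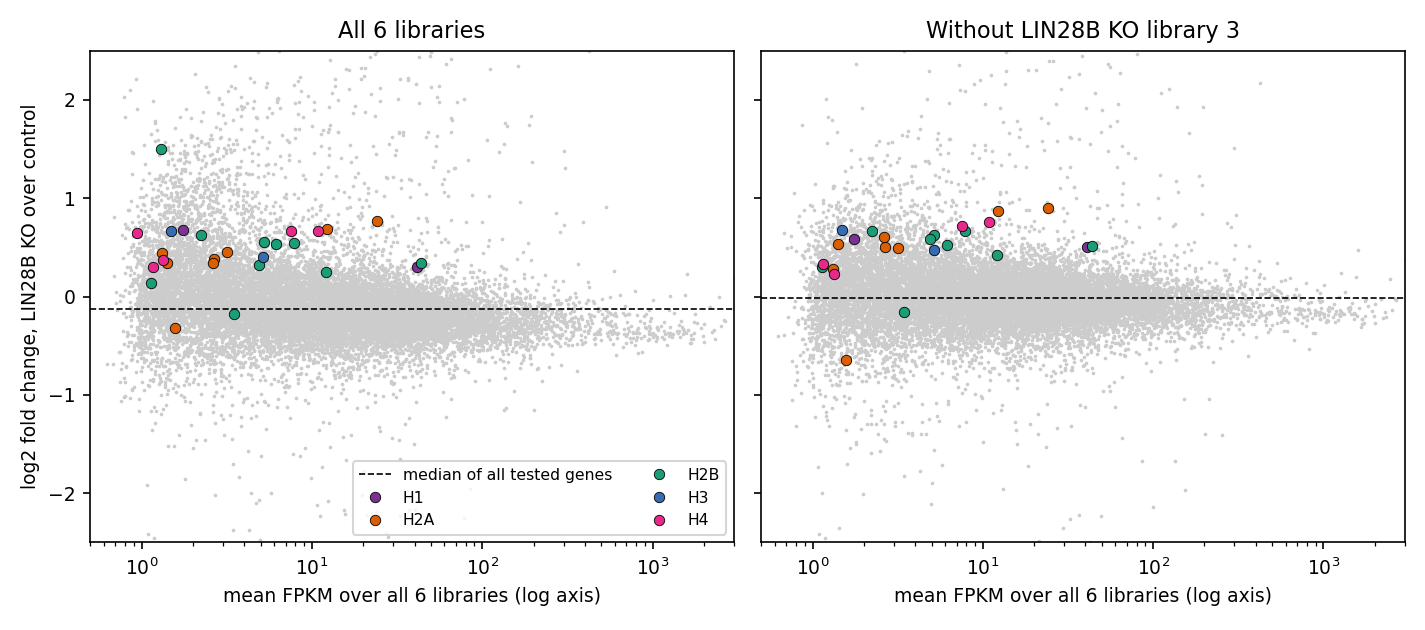
Log2 fold change of LIN28B KO over control (vertical) against mean FPKM over all 6 libraries (horizontal, log axis) for tested genes, with all libraries at left and without LIN28B KO library 3 at right; grey dots are all tested genes within the drawn limits, coloured dots the histone cluster genes by class, and the dashed line the median of all tested genes (-0.13 at left, -0.02 at right). The members lie mostly above the dashed line at every level, with HIST2H2AC and HIST1H2BH below 0 in both panels.

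Medians were above 0 at each level and in each class with tested members. The median log2 fold change was 0.42 for the 20 tested members at 1 to 10 FPKM, beside -0.01 for all tested genes at that level, and 0.50 for the 6 at 10 FPKM or more, beside -0.19 for all tested genes at that level. By class it was 0.65 for 5 H4, 0.53 for 2 H3, 0.49 for 2 H1, 0.44 for 10 H2B and 0.41 for 8 H2A genes. Differences between classes were not tested. The H4 median was the value of HIST1H4C (0.65 ± 0.46, SE), which averaged 0.933 FPKM over all 6 libraries. HIST3H2BB, an H2B gene at the 1 to 10 FPKM level, passed the filter only through its LIN28B KO values. Neither was tested without LIN28B KO library 3, where the class medians were 0.52 (H4), 0.57 (H3), 0.55 (H1), 0.52 (H2B) and 0.52 (H2A). Scaling moved the median of all tested genes to 0.00 (cyclic loess) and that of the members to 0.50, with 25 of 27 above 0, beside 50.8% of all tested genes. On that scale the log2 ratio of HIST1H2AC to its control mean was 0.86, 1.03 and 0.95 in LIN28B KO libraries 1 to 3. For HIST1H2BK these ratios were 0.54, 0.61 and 0.48, and for HIST1H1C 0.53, 0.60 and 0.39, so that library 3 was close to the others in these 3 genes. In some lower members library 3 departed from the others. In libraries 1 to 3 the ratios were 0.37, 0.71 and -0.09 for HIST2H2AA3 and 0.40, 0.72 and 0.00 for HIST1H2BC. HIST2H2AC was at -0.98, -0.50 and 0.30. In other lower members library 3 lay between the others, with 0.76, 0.60 and 0.62 for HIST2H2BE and 0.95, 0.49 and 0.87 for HIST4H4. HIST1H2BG, at 0.66, 0.37 and 0.83, was highest in library 3. These examples were not chosen by a rule. After scaling, every LIN28B KO library was above every control in 15 of 27 members, beside 13.7% of all tested genes. This count and the 25 of 27 above 0 both include HIST3H2BB. Neither was repeated on the members chosen on controls. Among the 39 members above 0 and under 1 FPKM, the LIN28B KO mean was higher in 27 (69.2%), beside 72.7% of 21233 genes at that level, and without library 3 in 22 (56.4%), beside 48.4%, so these low members were near the background. Chosen after its values were seen, HIST1H2AM was at 0.131, 0.786 and 0.541 FPKM in LIN28B KO and 1.10, 1.89 and 0.724 FPKM in controls, so that low members did not all lean one way.

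**Figure D4:**
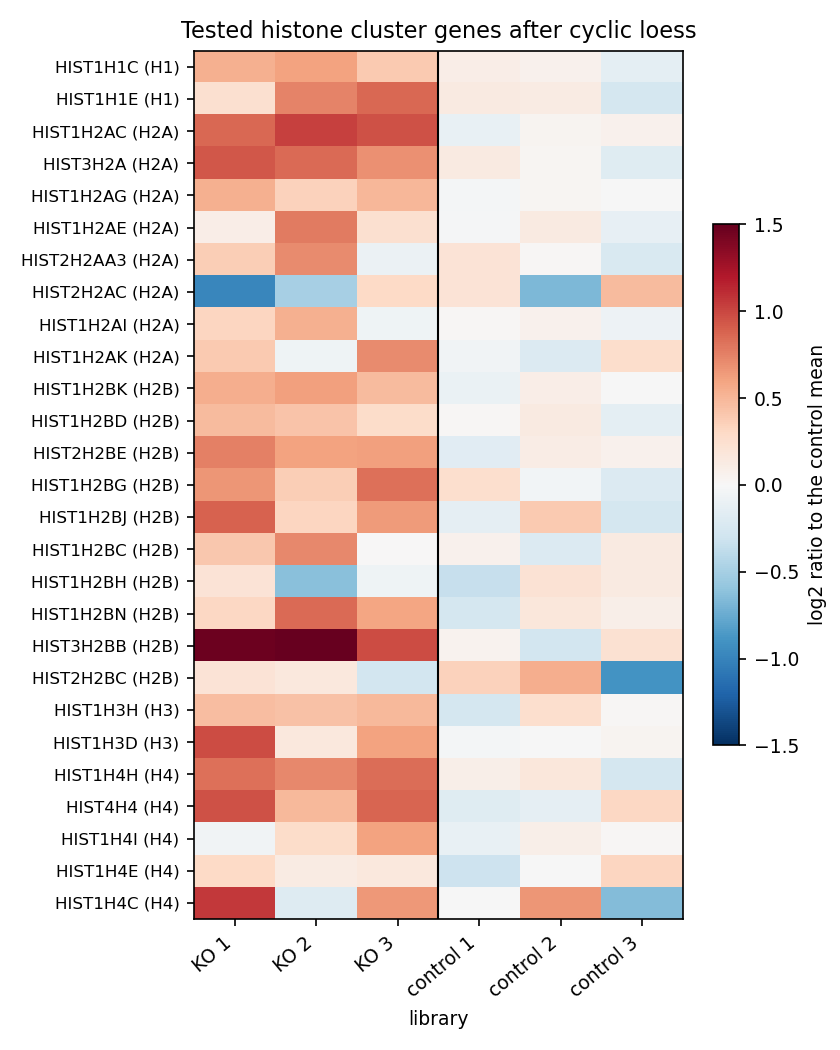
Log2 ratio to the control mean after cyclic loess scaling, 27 tested members (rows, grouped by class) in 6 libraries (columns, LIN28B KO left of control); red is higher and blue lower, with colours capped at 1.5. HIST1H2AC lies between 0.86 and 1.03 in LIN28B KO, HIST2H2AC reaches -0.98 in LIN28B KO library 1, and 8 members are below 0 in at least 1 LIN28B KO library.

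RNAs that lack a poly(A) tail also had higher summed levels in LIN28B KO. Of 18 such genes listed, 9 were at 0 in every library and 7 were tested, with a median log2 fold change of 0.85 with all libraries and 0.28 for the 6 tested without LIN28B KO library 3, and 0 called in either. Their summed level was 420, 353 and 617 FPKM in LIN28B KO libraries 1 to 3 and 219, 264 and 257 FPKM in controls. RN7SL1, the signal recognition particle RNA, made up most of it, at 343, 303 and 402 FPKM in LIN28B KO and 176, 211 and 192 FPKM in controls. The rest of the list summed to 76.6, 50.4 and 214 FPKM in LIN28B KO and 43.8, 52.9 and 65.0 FPKM in controls, with LIN28B KO library 2 within the control range and libraries 1 and 3 above it. The part of poly(A) selection in the members' levels was not tested. Markers of T or NK, myeloid and erythroid cells each summed to under 1.5 FPKM in every library, and B cell markers to 0.865, 0.828 and 4.95 FPKM in LIN28B KO libraries 1 to 3 and 0.191 to 1.03 FPKM in controls, the high value being CD22 at 4.62 FPKM in library 3. Fibroblast markers summed to 3.42, 3.35 and 10.7 FPKM in LIN28B KO libraries 1 to 3 and 2.78 to 5.13 FPKM in controls, again highest in library 3. Epithelial markers, led by keratin 8 (KRT8), summed to 75.6 to 102 FPKM in LIN28B KO and 120 to 131 FPKM in controls.

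Neighbouring genes that share a promoter region differed widely in level in some pairs and less in others. There were 14 pairs of an H2A and an H2B gene separated by at most 500 bases. The higher mean level was 1.65 times the lower for HIST1H2AG and HIST1H2BJ, and 1.70 times for HIST1H2AK and HIST1H2BN. For 3 pairs with both genes under 1 FPKM it was 1.18 (HIST1H2AM and HIST1H2BO), 1.28 (HIST1H2AJ and HIST1H2BM) and 1.44 times (HIST1H2AD and HIST1H2BF). HIST1H2AC averaged 24.2 FPKM over all 6 libraries and its divergent neighbour HIST1H2BC, 218 bases away and with the same octamer, 4.86 FPKM. Their log2 fold changes with all libraries were 0.77 and 0.32, HIST1H2BC being at 5.76, 7.31 and 3.51 FPKM in LIN28B KO and 4.40, 3.53 and 4.63 FPKM in controls, with overlap. HIST1H2BK was at a mean of 43.8 FPKM and HIST1H2AH, 241 bases away, at 0.288 FPKM, a ratio of 152. HIST2H2AC and HIST2H2BE share an octamer as well, with mean levels of 1.57 and 7.81 FPKM, and their log2 fold changes were -0.31 and 0.55. HIST3H2A and HIST3H2BB were at mean levels of 12.3 and 1.30 FPKM. The other 3 pairs in which both genes were tested had log2 fold changes of 0.39 and 0.53 (HIST1H2AE and HIST1H2BG), 0.45 and 0.55 (HIST1H2AG and HIST1H2BJ), and 0.44 and 0.62 (HIST1H2AK and HIST1H2BN). The difference in response within a pair was not tested.

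Levels also varied with annotated gene structure. The 22 members whose locus in the tables spans over 1000 bases had a median level of 1.41 FPKM, and 7 of them reached 5 FPKM. The 54 shorter ones had a median of 0.266 FPKM, and 4 reached 5 FPKM. In GENCODE 29 the annotated transcript runs at least 100 bases past the stem-loop in 23 of the 32 members with one, with 14 of these at 1 FPKM or more and a median of 1.34 FPKM. In the other 9 it ends sooner, with 4 at 1 FPKM or more and a median of 0.658 FPKM. The transcript of HIST1H2AC extends 1114 bases past its stem-loop, that of HIST2H2BE 1729, of HIST1H4H 630 and of HIST3H2A 390 bases. HIST1H2BK and HIST1H1C, the highest members, are annotated only up to the stop codon there. FPKM divides by annotated length, so these levels depend on the gene models. The models also enter the comparison between groups, through the filter of 1 FPKM and the fixed amount added before the log. The split of reads among transcript forms and overlapping genes could enter it too, which was not tested.

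Factors that process or transcribe histone mRNA were mostly at or below their control levels. Of 41 genes of this machinery, 0 were called with all 6 libraries, and 2 had a log2 fold change above 0, beside 33.5% of all tested genes, and their median was -0.25, beside -0.13. In the protein-coding fit without LIN28B KO library 3, after cyclic loess, 13 of 41 were above 0, beside 50.2% of genes, with a median of -0.07. In that fit without the scaling, 2 of 41 fell, a share near the 2.99% of all genes that fell, and 0 rose. They were SNRPB (-0.33 ± 0.05, limma adjusted p = 0.0303) and SNRPE (-0.29 ± 0.05, limma adjusted p = 0.0334), which code for shared core proteins of small nuclear ribonucleoproteins, and neither passed after cyclic loess. SLBP was at 48.9, 52.1 and 31.97 FPKM in LIN28B KO and 59.8, 62.3 and 61.8 FPKM in controls. All LIN28B KO libraries were below the controls, but the log2 fold change of -0.49 ± 0.20 (SE) did not pass (limma adjusted p = 0.354), nor did that of -0.28 ± 0.06 in the protein-coding fit without library 3 (limma adjusted p = 0.0677). NPAT, the activator of histone gene transcription downstream of cyclin E and CDK2, averaged 11.1 ± 2.57 FPKM in LIN28B KO and 11.7 ± 0.839 FPKM in controls. CASP8AP2, a histone locus body protein, averaged 5.62 ± 0.610 FPKM in LIN28B KO and 5.96 ± 0.573 FPKM in controls. Of the U7-specific proteins, LSM10 averaged 22.5 ± 4.90 FPKM in LIN28B KO and 26.5 ± 1.09 FPKM in controls, and LSM11 2.40 ± 0.0987 FPKM in LIN28B KO and 2.75 ± 0.0956 FPKM in controls. ZNF473, which acts with the U7 particle, averaged 7.08 ± 0.969 FPKM in LIN28B KO and 8.38 ± 0.744 FPKM in controls. ERI1, an exonuclease that trims the stem-loop end, averaged 8.55 ± 2.45 FPKM in LIN28B KO and 10.5 ± 1.36 FPKM in controls (SD, n = 3 each, for all). None of these 6 passed in the fits named here.

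HINFP, a transcription factor of H4 genes, ran with the members. It was at 18.8, 21.0 and 25.4 FPKM in LIN28B KO and 13.6, 13.6 and 16.7 FPKM in controls, without overlap. Its log2 fold change of 0.56 ± 0.16 (SE; limma adjusted p = 0.295) did not pass, nor did it pass without LIN28B KO library 3 on protein-coding genes (0.44 ± 0.12, limma adjusted p = 0.0951).

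Histone genes outside the clusters ran the other way. All 8 tested genes of this list had negative log2 fold changes, where with all 6 libraries 33.5% of all tested genes were above 0. Their median with all 6 libraries was -0.58 and 0 were called. The median was -0.13 for all tested genes and -0.19 for those at 10 FPKM or more. Without LIN28B KO library 3 and on protein-coding genes the median was -0.38 and 5 of 8 fell, beside 2.99% of genes: H2AFZ and H2AFV, which code for replication-independent H2A variants, H2AFX, H1FX and CENPA, the centromeric H3 variant. H2AFX, H2AFZ and H1FX also passed after cyclic loess, where 1.02% of genes fell. H2AFX, whose mRNA is known in both the stem-loop and the polyadenylated form, was at 57.4, 55.5 and 35.7 FPKM in LIN28B KO and 87.6, 82.8 and 88.0 FPKM in controls. H2AFZ was at 297, 299 and 215 FPKM in LIN28B KO and 461, 438 and 461 FPKM in controls. No LIN28B KO library reached a control value in either gene, and the protein-coding fit without library 3 gave log2 fold changes of -0.60 ± 0.06 for H2AFX and -0.60 ± 0.04 for H2AFZ (limma adjusted p = 0.0178 and 0.0137). H3F3A and H3F3B, the genes of the replacement variant of H3, had log2 fold changes of -0.20 ± 0.06 and -0.17 ± 0.05 in that fit and did not pass. H2AFY, at -0.13 ± 0.05, did not pass either. After cyclic loess these 3 genes were closer to the median of all tested genes (0.00), at -0.13 ± 0.05 (H3F3A), -0.07 ± 0.06 (H3F3B) and -0.04 ± 0.05 (H2AFY). The median of the list was then -0.30.

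Genes of DNA replication and some of histone deposition were lower in the fits without LIN28B KO library 3. Of 36 S phase genes, all had negative log2 fold changes in each fit named here. Of all tested genes, 33.5% were above 0 with all libraries. Without LIN28B KO library 3 on protein-coding genes 42.8% were, and 50.2% after cyclic loess. The S phase median was -0.61 with all libraries (0 called), beside -0.13 for all tested genes. It was -0.48 without LIN28B KO library 3 on protein-coding genes, beside -0.04. There 22 fell, beside 2.99% of genes, of which 7 fell after cyclic loess, beside 1.02%. RRM2, a ribonucleotide reductase subunit, was at 183, 181 and 122 FPKM in LIN28B KO and 300, 294 and 275 FPKM in controls. Of 22 histone chaperones and partners, 0 were called with all libraries (median -0.41), 8 fell without library 3 on protein-coding genes (median -0.28), beside 2.99% of genes, and 3 of these, ASF1B, CHAF1A and MCM2, fell also after cyclic loess, beside 1.02%. Log2 fold changes were above 0 in 2 of the 22 with all libraries, beside 33.5% of all tested genes. They were above 0 in 4 without library 3 on protein-coding genes, beside 42.8%, and in 6 after cyclic loess, beside 50.2%. Among these were ATRX, SUPT6H and NAP1L4 (0.24, 0.24 and 0.25 after cyclic loess), which did not pass. CHAF1A, part of the chromatin assembly complex that deposits H3-H4 behind the replication fork, was at 19.7, 24.1 and 17.2 FPKM in LIN28B KO and 39.2, 37.2 and 36.2 FPKM in controls. In both genes every LIN28B KO library was below every control. The difference in direction between these lists and the histone cluster genes was not itself tested.

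**Figure D5:**
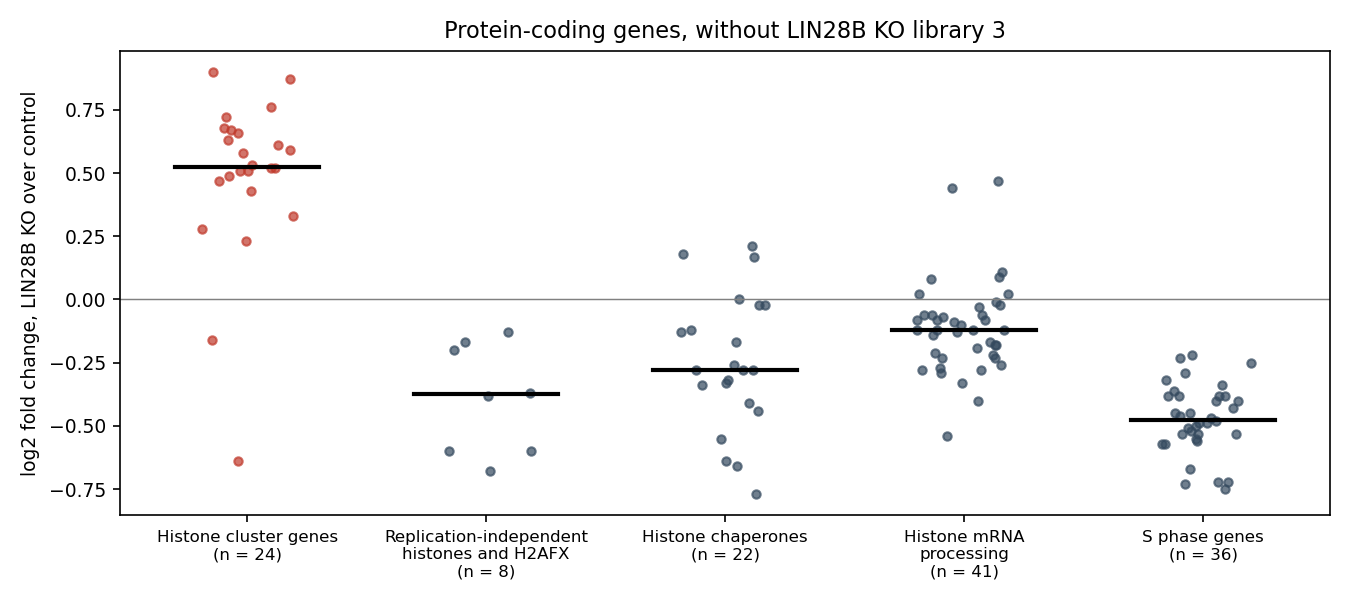
Log2 fold change of LIN28B KO over control in the fit of protein-coding genes without LIN28B KO library 3, one dot per tested gene, black lines at the medians (0.53 for 24 histone cluster genes, -0.38 for 8 other histone genes, -0.28 for 22 chaperones, -0.12 for 41 processing genes and -0.48 for 36 S phase genes). Of the histone cluster genes 22 of 24 lie above 0, and all S phase genes lie below it.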

How the data were processed

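RNA sequencing tables of 3 LIN28B KO and 3 control libraries of MOLP-8 were used, grouped by the condition in the labels and numbered as in the titles. The submitters' processing notes list cutadapt, TopHat2, HTSeq and the build GRCh37, without roles or versions. The authors deposited FPKM with a lower and an upper bound per gene, per the file headers. The tool that wrote them is not given in the sources used here. Rows were summed per gene (58000 rows, 57886 genes), and 25 genes with a failed estimate were left out, none of them a member. The files hold no read numbers. Fragment equivalents, (2 FPKM / (upper bound - FPKM)) squared, describe depth only, cover counting error only and enter no test.

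Tests used limma 3.58.1 in R 4.3.3 on log2(FPKM + 0.5), with a trended variance and no covariate, for genes with at least 1 FPKM in at least 3 libraries. Benjamini-Hochberg adjustment ran over all tested genes, with a threshold of 0.05. A fold change on this scale understates that of low genes. Alternatives were other pseudocounts, filters and scalings, a replicate block, protein-coding genes only, and leaving out each library. Same-numbered libraries did not deviate together (correlations of -0.02, 0.04 and -0.03), so numbers were not taken as pairs. The fit was also run on simulated data with known changes, larger than those of most members. Its noise was drawn from the control libraries, with no library like LIN28B KO library 3. The simulation therefore does not show how that library or small changes affect the calls.

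Members named by rule were the 5 highest per class, the 3 largest rises and falls and all called without LIN28B KO library 3. Other members, such as HIST1H2BC, HIST1H2AH, HIST1H2AK, HIST1H2BN and HIST1H2AM, are named outside this rule, as neighbours or examples. The members, gene lists and alternatives were chosen with earlier results of these data known. Biotypes came from GENCODE 29 by identifier (40 members) or symbol (36), and 70 members were protein-coding. Promoters came from RefSeq.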

Additional observations from a re-analysis of the deposited data

How the results depend on the processing

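The FPKM tables limit what can be said of low members, 50 of which averaged under 1 FPKM, and of copies with near-identical coding sequence. Counts of calls depended on LIN28B KO library 3 and on scaling. With all 6 libraries 10 genes were called higher and 5 lower. These counts were 0 and 0 without a filter, 3 and 1 with 1 FPKM required in all libraries, 57 and 54 after cyclic loess, and 36 and 36 after cyclic loess without LIN28B KO library 3. On protein-coding genes without that library they were 122 and 341, or 114 and 116 after cyclic loess. Quantile normalization gave 13 lower genes and protein-coding genes with all libraries 15. Leaving out 1 library at a time gave 1 to 23 higher and 0 to 41 lower genes.

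Histone cluster genes called higher numbered 0 with all 6 libraries, 1 after quantile normalization, 2 after cyclic loess, 1 after cyclic loess without LIN28B KO library 3, 6 on protein-coding genes without it and 4 after cyclic loess of these. Leaving out 1 library at a time gave 0 to 1, the 1 being HIST1H2AC without LIN28B KO library 3. None was called lower in any setting. The LIN28B log2 fold change missed the threshold without a filter (-1.66, limma adjusted p = 0.152), and leaving out 1 library gave -1.75 to -1.5 (limma adjusted p of 0.00957 to 0.185). The members' median of 0.44 was 0.17 without a filter, beside 0.00 for all genes, where most members are near 0. The log2 ratio of the H2A sums, 0.64, was 0.80 after cyclic loess without LIN28B KO library 3. Of 391 values of 23 named members under alternatives, 374 kept direction and side of the threshold, 15 passed it and 2 reversed: HIST1H2BH was 0.03 without LIN28B KO library 2 (-0.39 to 0.03 over left-out libraries) and HIST2H2BC -0.31 without control library 3 (-0.31 to 0.41). The causes were not tested.

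With the replicate number as a block, 11 genes were called higher, 2 lower and 0 members, and LIN28B, at -1.66, had a limma adjusted p of 0.0604. The numbers share no stated source.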
